A study of Mus musculus with 15 samples.

Results

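The secreted ligands that steer blood and lymph vessel growth were examined in laser-microdissected lung of SP-C/c-raf mice: the vascular endothelial growth factors Vegfa, Vegfb, Vegfc, Vegfd and Pgf, the angiopoietins Angpt1 and Angpt2, the angiopoietin-like protein Angptl4 and the peptide apelin, Apln. The members were taken as all probe sets that the array annotation assigns to one of these 9 genes alone, which gave 17 of the 45037 probe sets on the array that are not controls, and 9 of the 18161 genes named by them. Of the 17 probe sets, 14 averaged more than 100 in signal across all 15 arrays and were tested, so that each gene kept at least 1 tested probe set. All 14 also had a mean above 100 in each of the 3 groups, whereas the 3 probe sets left out, 1 each for Angpt1, Angpt2 and Angptl4, had means of 12.9 to 43.5.

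SP-C/c-raf mice carry c-Raf-1, a kinase of the growth factor pathway, as a transgene that the surfactant protein C promoter drives in the respiratory epithelium. The line had at least 5 generations of breeding on C57BL/6 behind it. The groups were 5 samples of dysplastic foci (dysplasia), 5 of transgenic but unaltered lung (transgenic) and 5 of lung of littermates without the transgene (non-transgenic). By the methods, each transgenic mouse, 5 to 7 months old, gave both dysplastic and unaltered tissue, whereas the littermates were 7 to 10 months old. The labels name no agent, the mice without the transgene were the older ones, and every sample had an array of its own. By the methods, each sample was pooled from 1 animal.

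Vegfa acts through Kdr and Flt1 on blood vessel endothelium, and in the lung much of it is made by the alveolar epithelium. Vegfc and Vegfd are made as precursors that are cleaved, and they bind Flt4 on lymphatic endothelium, among other receptors. Vegfb and Pgf bind Flt1 and not Kdr. Angpt1, made by cells around the vessel, activates the endothelial receptor Tek and quiets vessels, while Angpt2, stored in endothelial cells, can oppose it. Apelin is secreted by sprouting endothelial cells and acts on Aplnr, and Angptl4 inhibits lipoprotein lipase and is induced by fasting, hypoxia and fatty acids.

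Of the 9 ligand genes, 7 were lower in dysplasia than in transgenic tissue, where 21.0% of all genes were lower and 18.6% higher. Vegfd, Angpt1, Vegfc, Angptl4, Vegfa, Angpt2 and Apln fell, Pgf rose, and Vegfb did not pass the test. At the brightest probe set of each gene, the dysplasia mean stood at 20.3% of the transgenic mean for Vegfd, 24.2% for Angpt1, 32.3% for Vegfc, 44.4% for Angptl4, 44.7% for Angpt2, 50.5% for Vegfa and 55.7% for Apln. For Vegfb it was 104% and for Pgf 149%. In microdissected tissue, fewer cells of a type and less RNA per cell cannot be told apart.

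Counted by probe set, 11 of the 14 were lower and 1 was higher in dysplasia than in transgenic tissue (limma, adjusted p under 0.05), while 17.9% of all 21658 tested probe sets were lower and 15.3% were higher. Counted by gene, 7 of 9 were lower and 1 was higher, against 21.0% lower and 18.6% higher of 11597 genes. The median log2 change of the 14 was -1.20, and that of all tested probe sets was -0.01. In 11 of the 14 every dysplasia array lay below every transgenic array, which was so for 13.6% of all tested probe sets, and in 1 every dysplasia array lay above (11.8% of all). Against non-transgenic tissue again 11 were lower and 1 was higher, where 23.3% of all probe sets were lower and 20.7% higher, and the median of the 14 was -1.68. There 10 did not overlap below and 1 above, against 17.5% and 15.8% of all. By gene 7 were again lower and 1 was higher, against 26.0% and 24.7% of all genes. Both comparisons share the dysplasia arrays. Between transgenic and non-transgenic tissue 1 of 14 was lower and none was higher by limma, with 4 at an unadjusted p under 0.05 (12.1% of all probe sets), and of all probe sets 0.0831% were lower and 1.17% higher. In 1 of the 14 all transgenic arrays lay below all non-transgenic arrays and in none above, which was so for 1.08% and 3.23% of all probe sets.

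**Figure D1:**
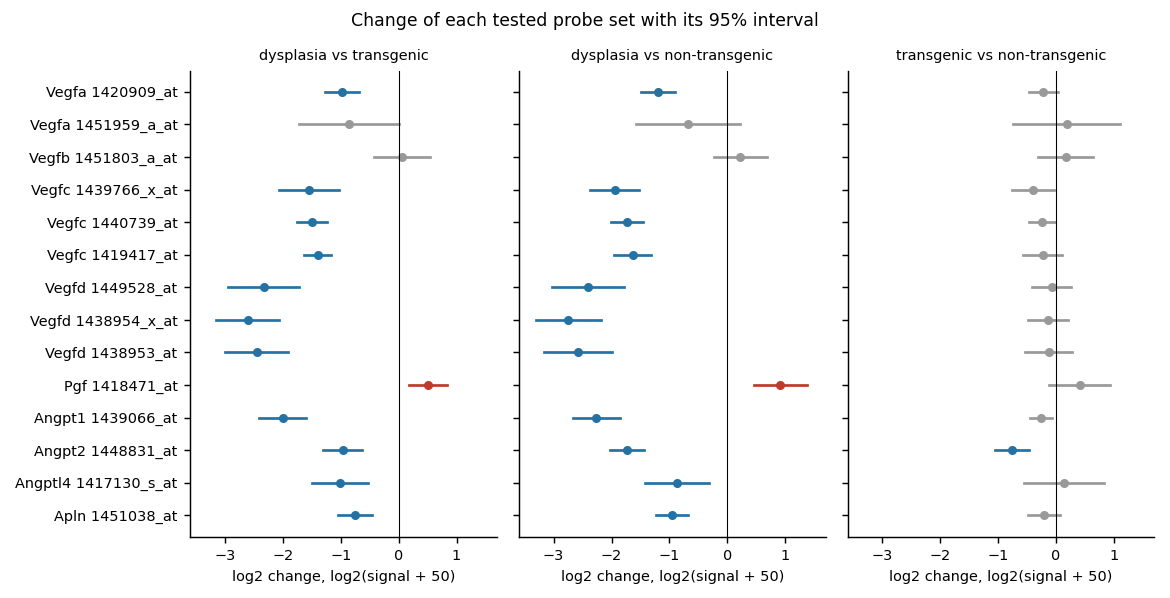
Log2 change of the 14 tested probe sets (vertical axis) in the 3 comparisons, on the scale of log2(signal + 50), with 95% intervals from limma. Blue marks a fall, red a rise and grey no call at an adjusted p of 0.05; 11 are blue and 1 is red in both comparisons with dysplasia, and only Angpt2 is coloured in the last.

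Before the single ligands, some arrays need a word. Transgenic 2 has labels in conflict, since the title calls it transgenic but unaltered and another label names a tumour, and it was used as transgenic. Dysplasia 4 carried both Xist, at 9674, and Y-linked transcripts, at a summed signal of 1088, whereas each of the other 14 arrays had high signal of one of them only, so that the data do not show its origin in 1 animal. Transgenic 4 read 85.0 for Xist and 2398 for the Y-linked sum, so number 4 did not match in Xist between dysplasia and transgenic tissue, and its arrays deviated together least of the 5 numbers (r = 0.219). The other 4 numbers matched in Xist. Xist was at least 9674 in 2 dysplasia, 1 transgenic and 4 non-transgenic arrays and at most 166 in the rest. The ratio of the 5' to the 3' actin control signal, a gauge of RNA integrity, ran from 12.5% to 75.2% over the 15 arrays. In each group arrays 1 and 2 had the highest ratios. Leaving out dysplasia 4 or transgenic 2 changed no call of a member in the comparison of dysplasia with transgenic tissue.

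Sequence upstream of the start is shown for the ligand that fell most, for its nearest relative and for the one that rose, to set their promoters side by side. RefSeq windows on GRCm38.p6 were matched for 6 of the 9 genes: Vegfa, Vegfb, Vegfc, Vegfd, Pgf and Apln. Each stretch below holds the 250 bases before an annotated start, 5' to 3' on the strand of the gene, and capitals mark the TATA box TATAAA and the GC box GGGCGG, found on either strand. The Vegfd stretch lies at chrX:164373272-164373521 on the plus strand, that of Vegfc at chr8:54077282-54077531 on the plus strand, and that of Pgf at chr12:85177314-85177563 on the minus strand.
Vegfd: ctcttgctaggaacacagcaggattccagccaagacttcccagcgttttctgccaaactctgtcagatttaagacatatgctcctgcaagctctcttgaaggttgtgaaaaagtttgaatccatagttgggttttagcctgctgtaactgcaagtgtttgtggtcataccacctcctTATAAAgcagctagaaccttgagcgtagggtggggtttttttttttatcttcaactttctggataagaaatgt
Vegfc: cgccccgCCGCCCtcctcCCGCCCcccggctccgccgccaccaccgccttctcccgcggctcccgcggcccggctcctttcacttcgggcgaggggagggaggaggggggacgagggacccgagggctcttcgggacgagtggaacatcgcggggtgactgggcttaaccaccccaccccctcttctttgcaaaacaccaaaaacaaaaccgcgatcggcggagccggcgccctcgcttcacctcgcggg
Pgf: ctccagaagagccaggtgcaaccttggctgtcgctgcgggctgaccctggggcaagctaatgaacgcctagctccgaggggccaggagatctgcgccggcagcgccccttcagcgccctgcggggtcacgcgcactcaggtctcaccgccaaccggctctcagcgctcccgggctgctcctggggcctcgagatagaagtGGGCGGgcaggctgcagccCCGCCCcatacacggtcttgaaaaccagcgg
Vegfd had 1 TATA box, whose first base lay 73 bases before the start, no GC box, 2 CpG and a GC content of 42.4%. Vegfc had 2 GC boxes, no TATA box, 30 CpG and a GC content of 71.6%, and Pgf had 2 GC boxes, no TATA box, 20 CpG and 68.4%. The median GC content of the 32851 windows was 52.4%. A TATA box was held by 12.4% of all windows and a GC box by 32.7%. Of 2 hypoxia response cores, ACGTG was in 16.6% of all windows and GCGTG in 28.2%, and CACGTG counts as ACGTG on both strands. GCGTG was in the Pgf stretch, and neither was in those of Vegfd and Vegfc. Pgf had a further window, at chr12:85175983-85176232 and not printed, with no GC box, no TATA box, 7 CpG, a GC content of 66.4% and neither hypoxia core, so GC boxes and GCGTG were in 1 of its 2 windows. The AP-1 motif TGANTCA (6.75% of all windows) and the Ets motif CCGGAAGT (2.88%) were in none of the 3. These are matches of letters, and nothing here measured binding.

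Vegfd, the lymphatic growth factor, had the largest fall of the ligands. Its brightest probe set, 1449528_at, read 564, 377, 367, 1262 and 590 on dysplasia arrays 1 to 5. Transgenic arrays read 3201, 2311, 3340, 3091 and 3601, and non-transgenic arrays 2661, 2808, 3437, 3164 and 4398. Dysplasia 4 was the highest dysplasia array and still lay under the lowest control array. The change against transgenic tissue was -2.33 ± 0.28 (log2, SE, n = 5 and 5; limma, adjusted p = 8.16e-05), a 4.92-fold lower mean, and without dysplasia 4 it was -2.60. The other probe sets, 1438954_x_at and 1438953_at, gave -2.61 and -2.45. Of 21658 probe sets ordered from the most negative change, the 3 held places 10, 16 and 23. Against non-transgenic tissue they gave -2.41 to -2.75, and transgenic minus non-transgenic was -0.07 (95% interval -0.42 to 0.27, limma, adjusted p = 0.924).

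Vegfc, which shares Flt4 with Vegfd, was lower at all 3 of its probe sets. Probe set 1440739_at read 332, 314, 310, 455 and 297 in dysplasia, 1130, 920, 1119, 1051 and 997 in transgenic, and 1164, 1498, 1164, 1304 and 1116 in non-transgenic tissue. At this probe set the dysplasia arrays lay close together apart from array 4, and all lay below the lowest control array. The change against transgenic tissue was -1.49 ± 0.12 (log2, SE, limma, adjusted p = 6.12e-06), and without dysplasia 4 it was -1.59. The brightest, 1439766_x_at, scattered more in dysplasia, at 246, 495, 551, 606 and 452, and gave -1.55 ± 0.23 (limma, adjusted p = 0.000373). The dimmest, 1419417_at, gave -1.40, and against non-transgenic tissue the 3 probe sets ranged from -1.63 to -1.95. Transgenic minus non-transgenic was -0.23 to -0.40, with no call (limma, adjusted p = 0.354 to 0.619).

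Vegfa, the main growth factor of blood vessels, was lower in dysplasia by about the same factor at each array number. The labels do not say that a number marks a mouse. Probe set 1420909_at read 1594, 2089, 1962, 2516 and 2354 in dysplasia, 3504, 3959, 4080, 4468 and 4810 in transgenic, and 4912, 3975, 4739, 5552 and 5054 in non-transgenic tissue. Dysplasia was 45.5% to 56.3% of the transgenic array of the same number, the narrowest range of the 9 genes. The change was -0.98 ± 0.13 (log2, SE, limma, adjusted p = 0.000208), and against non-transgenic tissue it was -1.19 (limma, adjusted p = 2.96e-05). Transgenic minus non-transgenic was -0.22 (95% interval -0.47 to 0.03).

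The dimmer Vegfa probe set, 1451959_a_at, scattered more. It read 256, 517, 155, 125 and 149 in dysplasia, 722, 833, 294, 302 and 243 in transgenic, and 490, 795, 390, 279 and 145 in non-transgenic tissue. In each group its highest values were those of arrays 1 and 2, the arrays with the highest actin ratio, and the groups overlapped. The change against transgenic tissue was -0.86 ± 0.39 (log2, SE, limma, adjusted p = 0.120). With the array number as a block the same change had an SE of 0.12 and an adjusted p of 0.000431, and with the actin ratio as a covariate it was -1.12 (limma, adjusted p = 0.0126). Without dysplasia 2 it was -1.14 (limma, adjusted p = 0.0291).

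**Figure D2:**
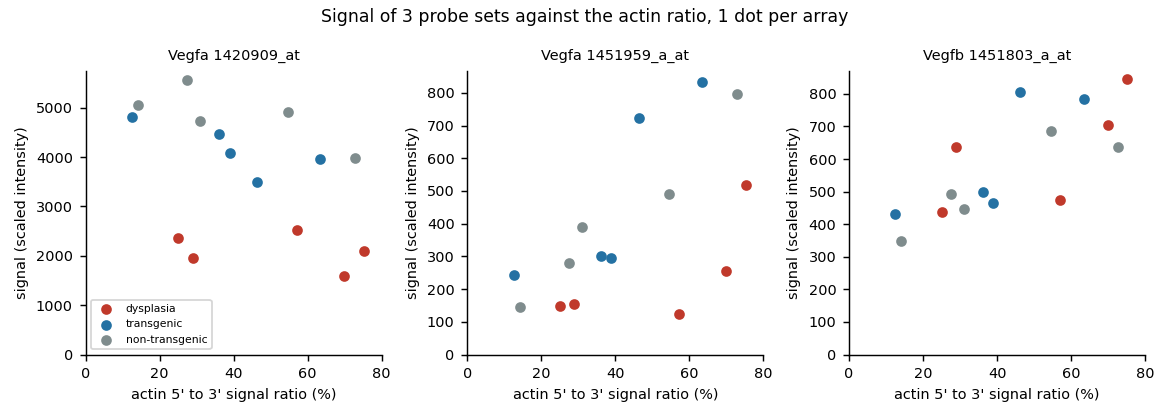
Signal of both Vegfa probe sets and of Vegfb (vertical axes, scaled intensity) against the 5' to 3' actin signal ratio in percent (horizontal axis), 1 dot per array, coloured by group. Dysplasia lies below the controls at every ratio for 1420909_at, while 1451959_a_at and Vegfb are highest on arrays with a high ratio.

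Vegfb, which binds Flt1 and is known for its part in fatty acid uptake and in the survival of heart muscle, did not pass the test. Probe set 1451803_a_at read 706, 847, 637, 474 and 439 in dysplasia, 807, 783, 464, 498 and 431 in transgenic, and 685, 637, 447, 494 and 348 in non-transgenic tissue. Arrays 1 and 2 were again the highest of each group, and all groups overlapped. The change was 0.06 (log2, 95% interval -0.42 to 0.54, limma, adjusted p = 0.875) against transgenic and 0.23 (95% interval -0.23 to 0.68) against non-transgenic tissue, so that a moderate change either way lies within the intervals.

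Pgf, placental growth factor, was the ligand that rose. Probe set 1418471_at read 282, 305, 350, 286 and 285 in dysplasia, 280, 243, 157, 193 and 139 in transgenic, and 134, 196, 54.1, 190 and 145 in non-transgenic tissue. Dysplasia lay above both other groups with no overlap, although dysplasia 1 and transgenic 1 were nearly equal, at 101% for that number, and numbers 3 and 5 reached 223% and 205%. The rise was 0.51 ± 0.15 over transgenic (log2, SE, limma, adjusted p = 0.0231), a 1.49-fold higher mean, and 0.92 ± 0.21 over non-transgenic tissue (limma, adjusted p = 0.00392), or 2.10-fold. The call against transgenic tissue was lost without dysplasia 3 (limma, adjusted p = 0.0572) or without transgenic 3, 4 or 5 (limma, adjusted p = 0.0596, 0.0505 and 0.0506), and in a fit of all 3 groups together (limma, adjusted p = 0.0713). That against non-transgenic tissue held in all 21 alternatives run. Transgenic minus non-transgenic was 0.41 (95% interval -0.11 to 0.94), with no call.

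Angpt1, the ligand that quiets vessels through Tek, had the largest fall after Vegfd. Probe set 1439066_at read 534, 449, 342, 843 and 437 in dysplasia, 2124, 2224, 2035, 2034 and 2349 in transgenic, and 2790, 2595, 2763, 2327 and 2477 in non-transgenic tissue. Transgenic arrays differed little from one another, and dysplasia 4 was again the highest of its group. The change was -2.00 ± 0.18 against transgenic (log2, SE, limma, adjusted p = 1.68e-05), or 4.13-fold, and -2.26 ± 0.19 against non-transgenic tissue (limma, adjusted p = 3.28e-06), or 4.97-fold. Without dysplasia 4 the first was -2.18. Transgenic minus non-transgenic was -0.26 (95% interval -0.44 to -0.08), which did not pass (limma, adjusted p = 0.200).

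Angpt2, the other angiopoietin, was stepped across the groups. Probe set 1448831_at read 187, 131, 140, 225 and 181 in dysplasia, 341, 475, 306, 467 and 344 in transgenic, and 550, 708, 736, 779 and 658 in non-transgenic tissue. No groups overlapped. The change in dysplasia was -0.97 ± 0.15 against transgenic (log2, SE, limma, adjusted p = 0.000503) and -1.73 ± 0.13 against non-transgenic tissue (limma, adjusted p = 2.24e-06). Transgenic minus non-transgenic was -0.76 ± 0.14 (limma, adjusted p = 0.0220), place 30 among 21658. That call was lost with Xist as a covariate (limma, adjusted p = 0.136), where the change was -0.75, and without transgenic 1 or 3 or non-transgenic 2, 3 or 4 (limma, adjusted p = 0.0507 to 0.0753). Transgenic 3, with high Xist, read the lowest of the transgenic arrays, and non-transgenic 1, the array of its group without it, read the lowest there. Xist was high in 1 of 5 transgenic and 4 of 5 non-transgenic arrays, so these single arrays cannot separate it from genotype. Age also differed between these groups and cannot be told apart from genotype.

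Angptl4, which blocks lipoprotein lipase, was lower in dysplasia, with wide spread in the controls. Probe set 1417130_s_at read 558, 434, 387, 420 and 439 in dysplasia, 1843, 815, 725, 820 and 833 in transgenic, and 1459, 1141, 917, 600 and 489 in non-transgenic tissue. All dysplasia arrays lay below the transgenic arrays, but non-transgenic 5 lay within the dysplasia range. The change was -1.01 ± 0.22 against transgenic (log2, SE, limma, adjusted p = 0.00444) and -0.87 ± 0.25 against non-transgenic tissue (limma, adjusted p = 0.0157). Leaving out single arrays moved the first from -0.78 to -1.10. Between the control groups, transgenic minus non-transgenic was 0.14 (95% interval -0.56 to 0.83).

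Apln, the signal of sprouting endothelium, had the smallest called fall against transgenic tissue. Probe set 1451038_at read 340, 323, 228, 303 and 348 in dysplasia, 464, 661, 595, 582 and 466 in transgenic, and 647, 770, 669, 622 and 522 in non-transgenic tissue. The dysplasia arrays lay below all others. The change was -0.75 ± 0.13 against transgenic (log2, SE, limma, adjusted p = 0.00108) and -0.96 ± 0.13 against non-transgenic tissue (limma, adjusted p = 9.46e-05). Between the control groups it was -0.21 (95% interval -0.48 to 0.07).

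**Figure D3:**
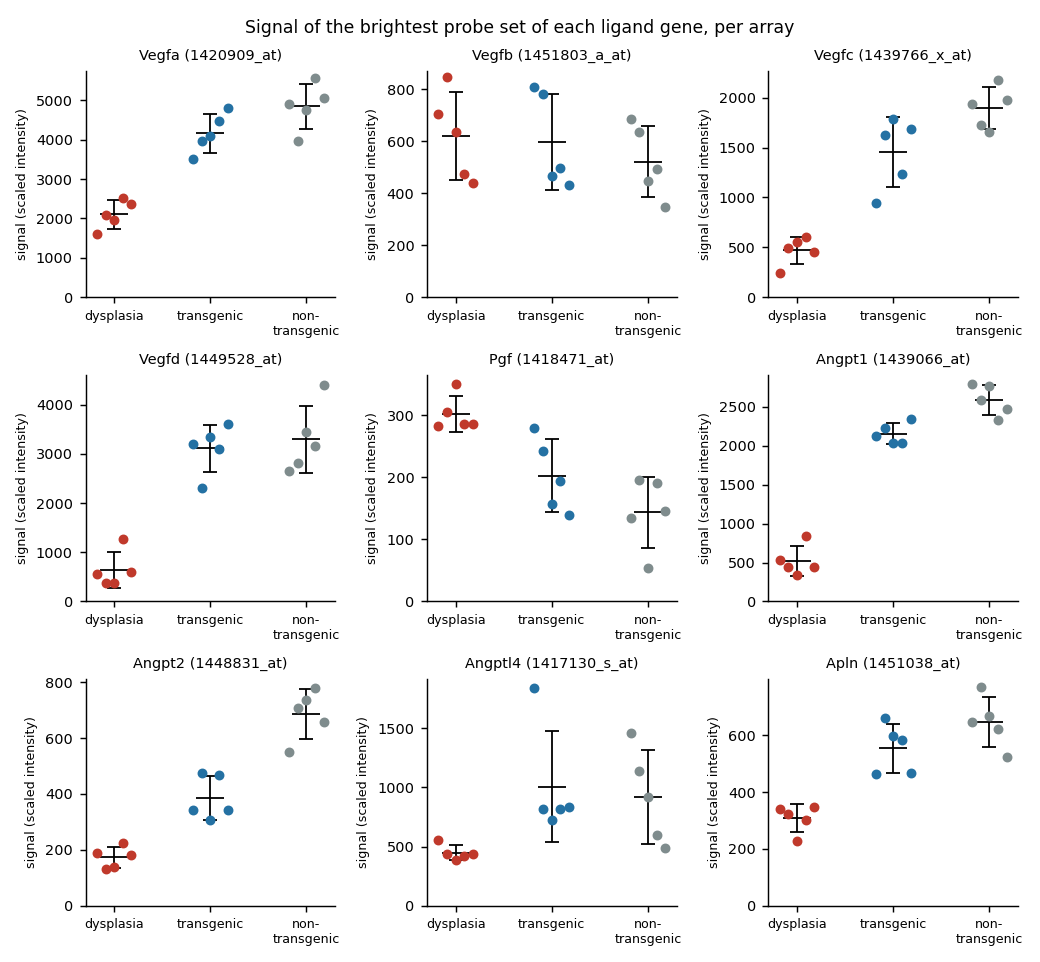
Signal (scaled intensity, linear axis from 0) of the brightest probe set of each ligand gene on the 5 arrays of each group, with mean and SD as bar and whiskers; dots run from array 1 to array 5. Dysplasia lies below both other groups for Vegfa, Vegfc, Vegfd, Angpt1, Angpt2 and Apln and above them for Pgf, it overlaps them for Vegfb, and for Angptl4 it overlaps the non-transgenic arrays only.

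Cell type markers also changed, where 21.0% of all genes were lower and 18.6% higher in dysplasia than in transgenic tissue. All 18 endothelial markers tested were lower in dysplasia than in transgenic tissue, with a median log2 change of -1.60, and their summed signal was 27980 to 40666 in dysplasia, 77844 to 104220 in transgenic and 94763 to 115566 in non-transgenic tissue. The mean sum in dysplasia was 35.6% of that in transgenic tissue. Dysplasia 4 had the highest endothelial sum of its group. It also had the highest fibroblast, pericyte, lymphatic, mesothelial, platelet, heart muscle and red blood cell sums. Among the ligands it was highest for Vegfa, Vegfc, Vegfd, Angpt1 and Angpt2 at the brightest probe sets. It was not highest for Angptl4, Apln, Vegfb or Pgf. Of the fibroblast and mesenchymal markers 5 of 9 were lower, with a summed signal of 25089 to 41332 against 57544 to 72612, and of the pericyte and smooth muscle markers 6 of 8, with 9063 to 12771 against 14731 to 19584. Lymphatic markers were lower in 3 of 4 tested, while the defining gene Prox1 was under the signal limit, and platelet markers in 5 of 6. Alveolar type 2 markers were higher in 1 of 8 and lower in none, and alveolar type 1 markers were lower in 5 of 9 and higher in 1. Mesothelial markers were lower in all 4 tested, and of the macrophage markers 6 of 8 were lower and 1 was higher. Club and ciliated cell markers were higher in 3 of 4 tested, red blood cell markers were lower in both tested, none of the 5 tested heart muscle markers was called by limma, and no adipocyte marker passed the signal limit. Against non-transgenic tissue, 2 of 8 macrophage markers were higher and 2 lower, and 1 of 4 club and ciliated markers was higher. All 5 tested heart muscle markers were lower there, where 26.0% of all genes were lower and 24.7% higher. The part of these markers in the ligand changes was not tested.

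Most receptors and surface partners of the ligands fell too. Of 12 receptors and surface partners, all tested, 10 were lower and none was higher in dysplasia than in transgenic tissue, with a median log2 change of -1.09 against -0.01 for all genes. Of all genes 21.0% were lower and 18.6% higher. Tek, the receptor of both angiopoietins, changed most, at -2.05 ± 0.16, from a mean signal of 5332 to 1277. Its partner Tie1 gave -1.79, and Ptprb, a phosphatase that restrains Tek, -1.68. Of the Vegf receptors, Kdr gave -1.74, the lymphatic receptor Flt4 -1.20 and Flt1 -0.97, with 2 of 3 Flt1 probe sets lower. The co-receptor Nrp2 gave -0.99 and Nrp1 -0.48, although 3 of the 4 Nrp1 probe sets had no call. Lpl, the lipase that Angptl4 blocks, gave -0.68, and Gpihbp1, which anchors it on capillaries, -1.60. The apelin receptor Aplnr, at -0.42 (95% interval -1.03 to 0.18), and the integrin Itgb1, at -0.16, had no call. Tek, Tie1 and Kdr are also on the list of endothelial markers and Flt4 on that of lymphatic markers. Against non-transgenic tissue 10 were lower and none was higher, where 26.0% of all genes were lower and 24.7% higher. Aplnr was called there (-0.78, limma, adjusted p = 0.0275). Lpl was not called at its brightest probe set (-0.33, limma, adjusted p = 0.0759), although 1 of its 2 probe sets was lower. Between the control groups no receptor passed (limma).

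The genes that release or mature these ligands went both ways. Of 7 tested, 1 was higher and 3 were lower in dysplasia than in transgenic tissue, and the median log2 change was 0.01. Of all genes 18.6% were higher and 21.0% lower. Pcsk6, a proprotein convertase, rose from a mean signal of 161 ± 7.01 to 1031 ± 155 (SD, n = 5 and 5), a log2 change of 2.35 ± 0.11 and a 6.42-fold higher mean. Pcsk5, another convertase, went from 1360 to 389, at -1.73, and Ccbe1, the cofactor that helps cleave the Vegfc precursor, from 700 to 219, at -1.54. Hspg2, the matrix proteoglycan perlecan, gave -0.67, with 1 of 2 probe sets lower. The convertases Furin, at 0.01, and Pcsk7, at 0.18, and the protease Ctsd, at 0.06, had no call.

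Of 19 known targets of hypoxia, 5 were higher and 3 were lower in dysplasia than in transgenic tissue, which lies near the shares of all genes (18.6% higher and 21.0% lower), with a median log2 change of 0.06. Ldha, lactate dehydrogenase, gave 0.73, the transcription factor Bhlhe40 0.61, the glucose transporter Slc2a1 0.48, Ankrd37 0.43 and the glycolytic enzyme Pgk1 0.32. For Pgk1, 2 of 3 probe sets were higher. Pfkfb3, a regulator of glycolysis, gave -1.30, the vasodilator peptide Adm -0.78 and Mxi1 -0.55. Car9, at -0.13, and Bnip3, at -0.12, had no call. Of 8 tested oxygen sensing genes only Hif3a was called, lower at -0.89. Hif1a, at 0.29 (limma, adjusted p = 0.0890), and Epas1, at -0.18, had no call at their brightest probe sets, and 1 of 2 Epas1 probe sets was lower. Their partner Arnt gave -0.23 at its brightest probe set, with no call, and 1 of its 3 probe sets was lower. Among 10 PPAR factors and targets other than Angptl4, 2 were higher and 2 were lower. Higher were the oxidation enzyme Acaa2 at 0.69, with 2 of 3 probe sets higher, and Ppard at 0.36. Lower were the lipid droplet protein Cidec at -1.24 and Rxra at -0.68, with 1 of 2 Rxra probe sets lower. Here too the counts lie near the 18.6% higher and 21.0% lower of all genes.

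Genes of sprouting and of its inhibition were counted too, where 18.6% of all genes were higher and 21.0% lower in dysplasia than in transgenic tissue. Of 11 tip cell and Notch genes, which include Apln and Angpt2, 7 were lower and 1 was higher. The Notch target Hey1 gave -1.74, Notch4 -1.68, Pdgfb, which draws pericytes to the vessel, -1.45, and the Notch ligand Dll4 and the chemokine receptor Cxcr4 -0.90 each, while Jag1 rose by 0.63 at its brightest probe set, with 1 of 2 higher. Of 7 inhibitors of vessel growth, 2 were higher: Col18a1, the source of endostatin, at 1.03, and Thbs1, thrombospondin, at 0.99 with 1 of 2 probe sets higher. Sema3f at -1.36, Sema3a at -0.72 with 1 of 2 lower, and Col4a3 at -0.48 were lower. Among 7 related family genes, Egfl7 at -1.68, Pdgfb, Pdgfc at -0.90 and Pdgfa at -0.84 were lower, and Egfl6 at 0.47 was higher.

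**Figure D4:**
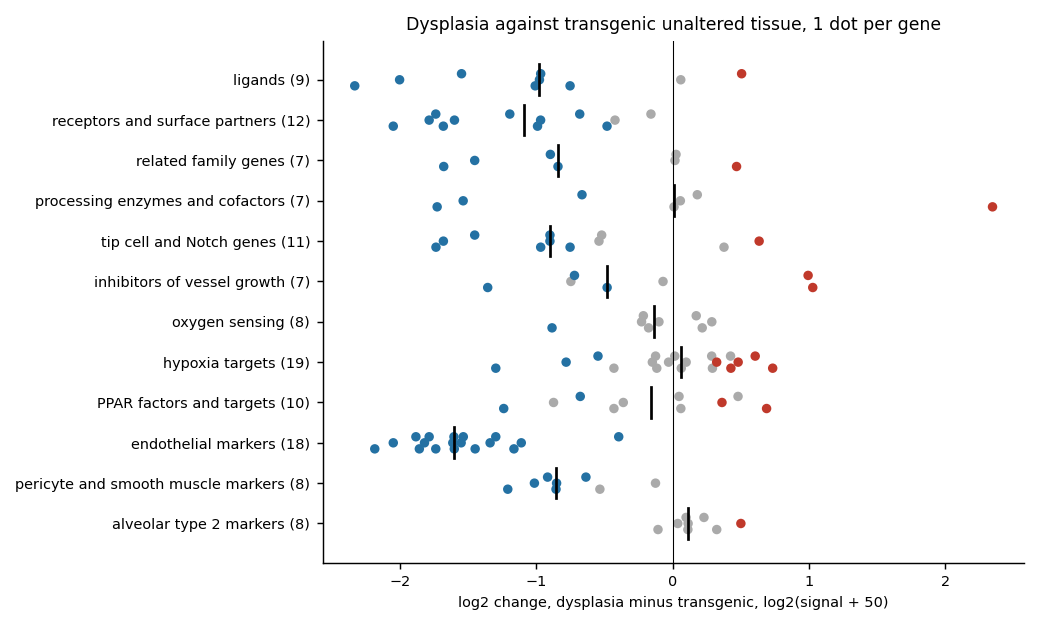
Log2 change between dysplasia and transgenic tissue, on the scale of log2(signal + 50), of the genes of each list, 1 dot per gene at its brightest tested probe set, with the number tested in parentheses and the median as a black line. Blue dots are lower, red dots higher and grey dots without a call; the medians are -0.98 for the ligands, -1.09 for the receptors, -1.60 for endothelial markers and 0.06 for hypoxia targets.

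The genes whose signal was most like that of each ligand over the 15 arrays were listed as a description, as Pearson's r of log2(signal + 50), with the r of the deviations from the group means beside it. All points share the step between groups and the RNA quality of the arrays. Vegfd was most like Mapt (0.99 and 0.94 within groups), Art3 (0.99 and 0.95) and Fam162b (0.99 and 0.94), and Angpt1 most like Slc38a5 (0.99 and 0.92), Cyyr1 (0.99 and 0.87) and Pakap (0.99 and 0.86). For Vegfa they were Smim4 (0.99 and 0.91), Qk (0.99 and 0.94) and Sox17 (0.99 and 0.90), for Vegfc 6430548M08Rik (0.99 and 0.90), Hoxb3 (0.99 and 0.91) and Fyn (0.98 and 0.84), and for Apln Plcl1 (0.97 and 0.81), Ntrk2 (0.96 and 0.77) and Tox3 (0.94 and 0.66). Angpt2 was most like Gna14 (0.99 and 0.94), followed by Pwwp3b (0.97 and 0.49) and Id4 (0.95 and 0.70), and Angptl4 most like Cerk (0.95 and 0.91), Gltp (0.94 and 0.87) and Slc10a6 (0.92 and 0.84). For Pgf they were Nipsnap3b (0.89 and 0.75), Ncapd2 (0.88 and 0.78) and Smpd2 (0.88 and 0.68), and for Vegfb Arhgef2 (0.91 and 0.90), Abhd17b (0.90 and 0.92) and Kdm5b (0.88 and 0.91).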

How the data were processed

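Each of 15 microdissected samples was measured on its own Affymetrix array. The authors made the intensity values with GCOS, scaled to a target signal of 500, and deposited them. The sources used here give no GCOS version. The 64 control probe sets were left out. The platform annotation named 34945 of 45037 probe sets by 1 gene. Log2(signal + 50) entered an unpaired fit (limma 3.58.1, R 4.3.3) on the 10 arrays of each comparison and the 21658 probe sets with a mean above 100, with Benjamini-Hochberg adjustment over all of them and a threshold of 0.05. Errors are SE unless named, and precision is limited by the number of arrays. The script was tested on simulated data. All member probe sets were named, with the genes of 21 lists and the 3 genes most like each member by r; the brightest tested probe set stands for a gene. Members and lists were chosen with earlier results of these data known. Arrays of the same number in dysplasia and transgenic tissue deviated together (r of 0.219 to 0.773), as did transgenic and non-transgenic arrays (0.135 to 0.793), and by the methods each transgenic mouse gave both of its tissues, though number 4 did not match in Xist between them. Promoter sequences are from RefSeq. Alternatives changed the offset, limit, scaling, moderation, covariates and arrays used.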

Additional observations from a re-analysis of the deposited data

Results flagged for a closer look

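Of 42 sets of 5 values (14 probe sets in 3 groups), 2 held a value far from the others by Dixon's criterion, which chance alone gives in about 1 of 20 sets. Vegfc at 1440739_at read 455 in dysplasia 4, the array with both Xist and Y-linked signal, where the other dysplasia arrays read 297 to 332. Angptl4 at 1417130_s_at read 1843 in transgenic 1, where the other transgenic arrays read 725 to 833.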

How the results depend on the processing

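Over 42 results of single probe sets and 21 alternatives each, 852 of 882 values kept direction and side of the threshold, 11 lost the call, 5 gained it and 14 changed sign, all 14 of them without a call. The number of member probe sets called higher in dysplasia than in transgenic tissue was 0 in a fit of all 3 groups and 0 to 1 without single arrays, and that called lower in transgenic than in non-transgenic tissue was 0 with the Xist covariate and 0 to 1 without single arrays. With the array number as a replicate block, 5072 probe sets rather than 3321 were higher in dysplasia than in transgenic tissue, and 53 rather than 18 were lower in transgenic than in non-transgenic tissue; it changed the call of 1 member, Vegfa 1451959_a_at, which against non-transgenic tissue then had an adjusted p of 0.00874. Dysplasia and non-transgenic arrays of the same number came from different mice, so they were not taken as pairs and the block there does not mark a mouse. Their deviations had r = -0.00366 for number 4 and 0.261 to 0.727 for the other numbers. Between transgenic and non-transgenic tissue 254 were higher, 106 with the Xist covariate, 434 with the actin ratio covariate and 112 to 266 without single arrays, and 18 were lower, 4 with Xist, 72 with the actin ratio and 4 to 25 without single arrays. The sign changes between dysplasia and transgenic tissue were those of Vegfb, at -0.075 with the actin ratio and -0.054 to 0.17 without single arrays. Those between transgenic and non-transgenic tissue were Vegfa 1451959_a_at, at -0.15 with Xist and -0.094 to 0.43 without single arrays, Vegfb, at -0.11 with Xist, Vegfd 1449528_at, at 0.077 with Xist and -0.14 to 0.034 without single arrays, and Angptl4, at -0.32 with Xist and -0.096 to 0.32 without single arrays. The cause of these shifts was not tested.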
